A study of Mus musculus with 24 samples.

Results

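Cortical cultures from Npas4 knockout mouse embryos were compared with wild-type cultures after 6 h of depolarization. The comparison was between 4 of the 24 arrays of the series, 2 per genotype, and the test took each gene's spread from all 24. Besides Npas4 itself, 5 genes were lower in the knockout and passed the test: Cdt1 and Gli2, lower by 3.66-fold and 2.99-fold, and Slc30a1, Bid and Hsd17b10, lower by smaller factors. Gli2 was dim outside the WT arrays at 6 h and entered the test only through them. No gene passed in the other direction, and in a fit to the 4 arrays alone 0 genes passed. Bdnf, Pcsk1, Vgf, Fos and Fosb rose strongly in both genotypes, and their difference between genotypes did not pass. When the fit allowed for repeat number, 29 more genes were lower, including Lmo2, Sfrp2, Lipg, Sv2b, Slc2a1 and Csrnp1, and 3 were higher. The named ones among these were not called when the same fit used the cortical arrays alone.

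Npas4 belongs to the bHLH-PAS transcription factors, and calcium entry during activity induces its gene in neurons. It binds DNA as a heterodimer with an Arnt family partner, and the pair recognizes sites with the core TCGTG. In cortical pyramidal neurons it is known for controlling activity-regulated genes and inhibitory synapses, and Bdnf is its best known target there.

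The members were all samples whose titles name CTX, KO or WT, and 6 h of KCl. The wild-type (WT) and knockout (Npas4 KO) embryos were littermates on the C57Bl/6 background, taken at embryonic day 14. Neurons derived from cortex (CTX) were grown to day 10 in culture. On the eve of depolarization all cultures, WT and KO alike, were silenced with the sodium channel blocker TTX and the NMDA receptor antagonist AP-5. KCl was then raised to 55 mM for 6 h. Silenced cultures (0 h), cultures depolarized for 1 h, and cultures derived from the medial ganglionic eminence (MGE), the embryonic source of cortical interneurons, supplied the other 20 arrays. The labels do not say which exons the knockout lacks, whether it acts in all cells, or how many embryos were pooled. Nothing says that repeats 1 and 2 came from separate cultures, so the p-values measure the spread between these arrays, which may be technical.

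Each array gives a brightness per probe set, used here as log2 intensity, so that a difference of 1 is a 2-fold change. Of 18194 genes, 12378 were above the median of at least 2 arrays and were tested. The median intensity of the 24 arrays lay between 115 and 121. Across genes the 2 WT arrays at 6 h correlated at 0.965 and the 2 KO arrays at 0.980, whereas WT and KO arrays with the same repeat number correlated at 0.994 and 0.987. Between the 2 WT arrays 980 genes lay over 2-fold apart, against 464 between the 2 KO arrays. The spread between repeats was therefore larger than the genotype difference within a repeat, where 85 genes in repeat 1 and 261 in repeat 2 lay over 2-fold apart.

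The cultures carried markers of cortical excitatory neurons. Neurod6, a transcription factor of pyramidal neurons, stood at 12.45 and 11.97 in WT and 12.49 and 12.47 in KO (log2 intensity, repeats 1 and 2). Tbr1, a factor of deep-layer neurons, stood at 12.32 and 11.82 in WT and 12.13 and 12.22 in KO. Gad1, which makes GABA, was also well above the array median, at 11.77 and 10.70 in WT and 11.63 and 11.56 in KO, so the cultures held markers of both kinds of neuron. Of the 12 excitatory markers tested the median difference between genotypes was -0.06, and of the 16 interneuron markers it was 0.04. By limma 0 of either were called, with 2 and 0 at an unadjusted p under 0.05, against 3.47% of all genes. In repeats 1 and 2 the excitatory median was -0.18 and 0.06, and the interneuron median -0.13 and 0.34. The mean over the interneuron markers was 9.54 and 9.06 in WT and 9.39 and 9.33 in KO, so that WT repeat 2 was the lowest. Glial markers set another array apart. The mean over 8 astrocyte markers was 10.08 and 10.35 in WT and 10.23 and 9.43 in KO, so that KO repeat 2 was the lowest, and over 8 microglia markers it was 7.23 and 7.43 against 7.34 and 6.83. Over 10 vascular markers it was 7.03 and 8.61 in WT and 6.69 and 8.14 in KO, higher in repeat 2 than in repeat 1 in both genotypes and lower in KO in both repeats, with a median difference of -0.32 and Dcn at -1.14 ± 0.45. By limma 0 of these glial and vascular markers were called with or without the block. At an unadjusted p under 0.05 there were 0, 0 and 1, against 3.47% of all genes. In bulk RNA, fewer cells of a type and less RNA per cell cannot be told apart.

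Npas4, the targeted gene, separated the genotypes at every depolarized time. At 6 h it stood at 11.73 and 11.84 in WT and 7.76 and 7.82 in KO, a 16-fold difference with no overlap (log2 difference -4.00 ± 0.25 SE, n = 2 arrays each, limma adjusted p = 1.78e-06). In silenced cultures all 4 arrays lay between 5.78 and 5.94. The KO signal was not flat, since it rose by 1.98 on the log2 scale from 0 to 6 h (limma adjusted p = 2.76e-05) while the WT signal rose by 5.92 (limma adjusted p = 3.85e-09). Whether the probe set for Npas4 lies inside the deleted part is not given in the sources used here.

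**Figure D1:**
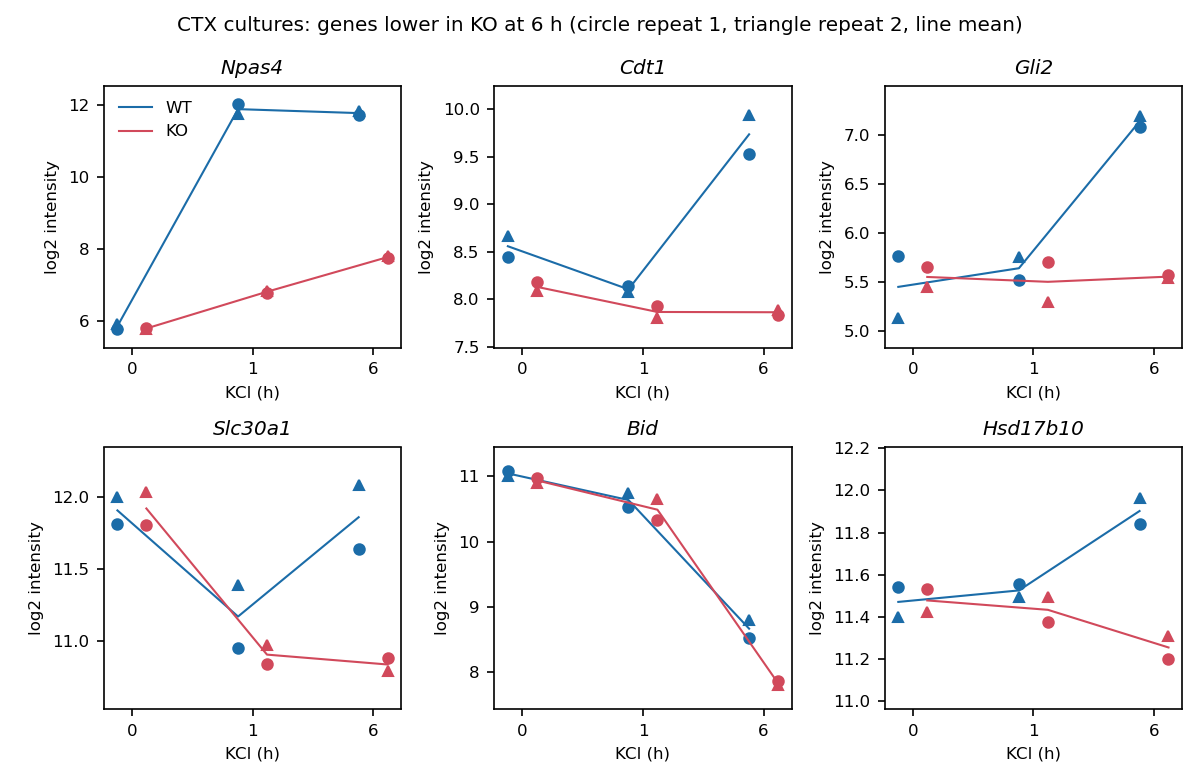
Log2 intensity of the 6 genes lower in KO at 6 h, in the 12 CTX arrays, by hours of KCl (evenly spaced, not to scale). Circles are repeat 1, triangles repeat 2 and lines join the means of 2 arrays. Each panel has its own vertical range. At 6 h both KO arrays lie below both WT arrays in every panel, and at 0 h the means differ by at most 0.43.

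Of the 12378 genes tested, 6 (0.0485%) were lower in KO at an adjusted p under 0.05 and 0 (0%) were higher, against 429 (3.47%) at an unadjusted p under 0.05. Cdt1, which loads the replicative helicase onto origins of DNA replication, had the largest difference after Npas4 among the 6 called genes. It stood at 9.53 and 9.94 in WT and at 7.84 and 7.89 in KO, so the WT arrays were high and both KO arrays lay together. This was a 3.66-fold difference (-1.87 ± 0.27 SE, n = 2 each, limma adjusted p = 0.0235). A second probe set for Cdt1 differed by -1.63 ± 0.23, and the dimmest, at 4.57 to 4.93 in all 4 arrays, differed by -0.05 ± 0.13.

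Gli2, a zinc finger effector of Hedgehog signalling, was at 7.08 and 7.20 in WT and at 5.57 and 5.54 in KO. The genotypes did not overlap, and the difference was 2.99-fold (-1.58 ± 0.19 SE, n = 2 each, limma adjusted p = 0.00481). Its other probe set differed by -2.57 ± 0.33. Of all 24 arrays only the 2 WT arrays of this comparison had Gli2 above the array median, so the gene entered the test through them and had to differ.

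The other 3 genes were brighter and differed less. Slc30a1, the zinc exporter ZnT1 of the plasma membrane, was at 11.64 and 12.08 in WT and 10.88 and 10.79 in KO, 2.04-fold lower (-1.03 ± 0.16 SE, n = 2 each, limma adjusted p = 0.0314). Bid, a BH3-only protein that links death receptors to the mitochondrion, was at 8.53 and 8.80 in WT and 7.86 and 7.80 in KO, 1.79-fold lower (-0.84 ± 0.12 SE, n = 2 each, limma adjusted p = 0.0246). Hsd17b10, a mitochondrial dehydrogenase that is also a subunit of mitochondrial RNase P, was at 11.84 and 11.96 in WT and 11.20 and 11.31 in KO, 1.57-fold lower (-0.65 ± 0.11 SE, n = 2 each, limma adjusted p = 0.0467). In none of the 3 did the genotypes overlap. A second probe set agreed in sign for Slc30a1 (-0.91 ± 0.13) and Hsd17b10 (-0.67 ± 0.11). The 2 dimmer probe sets of Bid differed by -0.41 ± 0.20 and 0.19 ± 0.21.

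The 6 genes reached these levels by different courses after silencing, as the plot of their levels by hours of KCl shows. These responses share their 6 h arrays with the genotype comparison, so they add no independent support. In WT, 1297 genes (10.5%) rose and 3065 (24.8%) fell from 0 to 6 h, and in KO 1395 (11.3%) rose and 3087 (24.9%) fell. Gli2 rose by 1.69 in WT (limma adjusted p = 1.23e-05) and changed by 0.003 in KO (adjusted p = 0.993). Cdt1 rose by 1.18 in WT (limma adjusted p = 0.00337) with -0.27 in KO (adjusted p = 0.50). Cdt1 thus had a WT response that passed and a KO value near its silenced level. Gli2 took the same course, but it entered the test only through the WT arrays at 6 h. Its rise in WT was thus built into the filter, and its p-value supports nothing.

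Slc30a1 and Bid took another course. Slc30a1 differed by -0.05 between 6 and 0 h in WT and fell by 1.09 in KO (limma adjusted p = 9.19e-05). Bid fell in both genotypes, by 2.38 in WT and 3.11 in KO (limma adjusted p = 1.75e-08 and 1.63e-09). Hsd17b10 rose by 0.43 in WT (limma adjusted p = 0.00524), with -0.22 in KO (adjusted p = 0.118).

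Before depolarization few genotype differences were called. At 0 h, 0 of 12378 genes were called by limma (0%), with 49 (0.396%) at an unadjusted p under 0.05. That share lies far below the threshold itself, so the test was strict and its 0 calls do not show that the genotypes were alike. List medians at 0 h ran from -0.30 (astrocyte markers) to 0.31 (microglia markers). With the repeat number fitted as a block, 2 genes were lower at 0 h (0.0162%). At 1 h Npas4 was the only gene called (0.00808%), lower in KO by 5.07 on the log2 scale, with 80 genes (0.646%) at an unadjusted p under 0.05. With that block 2 genes were lower at 1 h (0.0162%), Npas4 and Crym. At 0 h Cdt1 differed by -0.43, Gli2 by 0.10, Slc30a1 by 0.01, Bid by -0.11 and Hsd17b10 by 0.01. The test of the change itself, the genotype difference at 6 h minus that at 0 h, called Npas4 alone (-3.94 ± 0.35 SE, limma adjusted p = 0.000228, 0.00808% of genes), with 120 genes (0.969%) at an unadjusted p under 0.05. For Gli2 it gave -1.68 ± 0.27 (limma adjusted p = 0.124) and for Cdt1 -1.45 ± 0.38 (limma adjusted p = 1.00).

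The genes called depended on which arrays entered. Without WT repeat 1 the count at 6 h was 129, of which 51 were lower and 78 higher, and all 6 genes were among them. Without WT repeat 2 it was 8, of which 2 were among the 6 (Npas4 and Gli2). Without KO repeat 1 it was 2 and without KO repeat 2 it was 3, and Npas4 was the only one of the 6 in each. The log2 difference of each of the 6 genes was below 0 in every alternative run. Leaving out 1 array could not change that sign, because both KO arrays of each gene lay below both WT arrays. The shared sign thus adds no support.

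Repeat numbers carried a shared deviation in these cultures. In all 15 pairs of CTX groups, arrays with the same number deviated from their group means together (correlation across genes 0.111 to 0.711, highest between WT and KO at 6 h). WT at 6 h correlated with the groups at 0 and 1 h at 0.111 to 0.273, and KO at 6 h at 0.232 to 0.418. A fit with the repeat number of each cell type as a block takes out 1 shift per gene, shared by both genotypes and all 3 times. It thus describes the shift of the 6 h arrays in part, leaves the log2 differences as they were and changes their SE. It called 35 genes (0.283%) lower and 3 (0.0242%) higher at 6 h, and all 6 genes above were among them. The list is less firm than its length, because the block fitted to the 12 CTX arrays alone called 3 genes: Npas4, Cdt1 and Ppp1r13l (limma adjusted p = 0.0106 for Ppp1r13l). The genes described next were chosen after their values were seen.

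**Figure D2:**
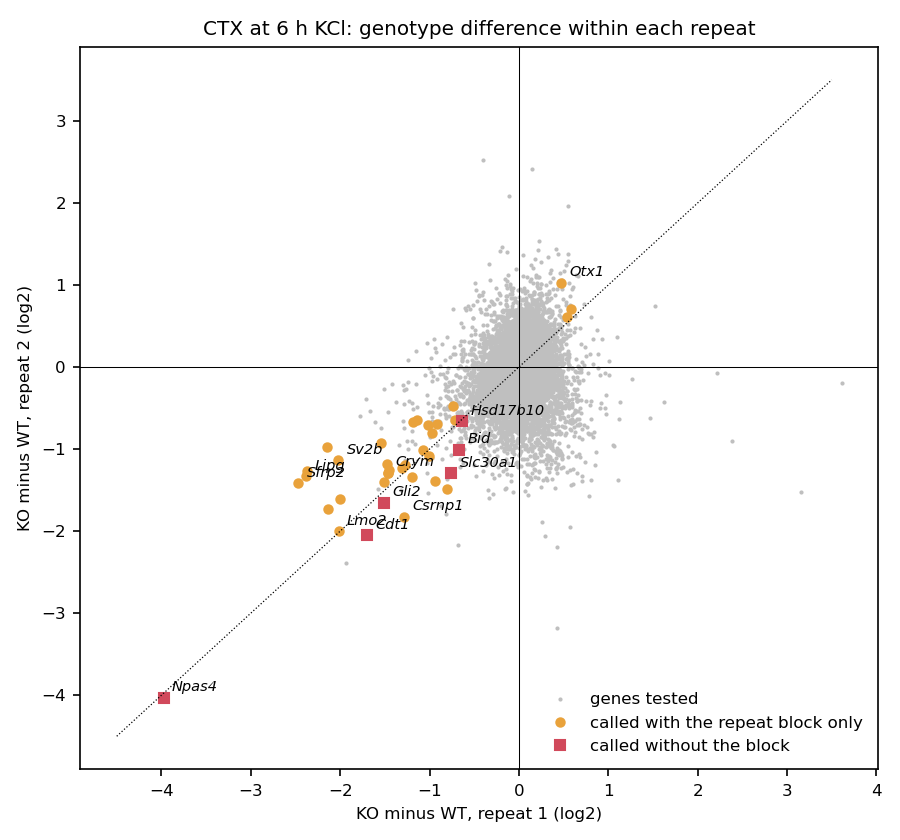
KO minus WT at 6 h in repeat 1 (horizontal, log2) against repeat 2 (vertical, log2) for the 12378 genes tested, with called genes as larger symbols and equality dotted. Across all genes the differences of the 2 repeats correlated at 0.160; 29 genes were lower by more than 1 in both repeats and 0 were higher by more than 1 in both.

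In the plot of repeat 1 against repeat 2, differences of over 1 in both repeats lie on the lower side. In 29 genes (0.234%) KO was lower by over 1 on the log2 scale in both repeats, and in 0 (0%) it was higher by as much. Both KO arrays lay below both WT arrays in 1331 genes (10.8%) and above them in 1003 (8.1%). Of the 34 genes called lower with the block besides Npas4, 33 had no overlap between genotypes, and Gpr176, an orphan receptor, was the exception. The same arrays chose these genes, so the counts describe them and support nothing.

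The genes are taken by what they are known to do, an order made after their values were seen. Lmo2, a LIM-only protein that bridges transcription factors, was at 10.27 and 9.17 in WT and 8.25 and 7.17 in KO. KO was thus lower by a similar amount in each repeat, while the repeats themselves lay apart, and the limma adjusted p was 0.238 without the block and 0.037 with it. Csrnp1, a nuclear protein induced by growth and activity signals, was at 10.97 and 11.42 in WT and 9.68 and 9.60 in KO (-1.55 ± 0.31 SE, limma adjusted p = 0.106, 0.0325 with the block). It still rose in KO from 0 to 6 h, by 2.19 against 3.77 in WT. Igf2bp1, which binds messenger RNAs of growth genes, was at 8.41 and 8.15 in WT and 6.93 and 6.97 in KO (limma adjusted p = 0.0501, 0.032 with the block). Its dimmer probe sets differed by -0.87 ± 0.33, -0.17 ± 0.21 and -0.11 ± 0.16. Ppp1r13l, the p53 inhibitor iASPP, was at 8.67 and 8.62 in WT and 7.20 and 7.33 in KO (-1.38 ± 0.27 SE, limma adjusted p = 0.0776, 0.0132 with the block). Rrp36, a ribosomal RNA processing factor, differed by -1.45 ± 0.25 (limma adjusted p = 0.0501, 0.0132 with the block).

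Some of the genes encode secreted or surface proteins. Sfrp2, a secreted Wnt antagonist, was at 10.28 and 10.23 in WT and 7.81 and 8.81 in KO, so that KO was low in both repeats and lowest in repeat 1. Lipg, the endothelial lipase, was at 11.75 and 11.58 in WT and 9.36 and 10.25 in KO. Their differences were -1.94 ± 0.46 and -1.86 ± 0.51, with limma adjusted p of 0.238 and 0.486 without the block and 0.032 and 0.0149 with it. Creg1, a secreted glycoprotein, was at 11.16 and 11.49 in WT and 10.19 and 10.69 in KO (-0.89 ± 0.15 SE, limma adjusted p = 0.0501, 0.0141 with the block). Cpm, a membrane carboxypeptidase, and Antxr2, the anthrax toxin receptor, differed by -1.15 ± 0.29 and -1.27 ± 0.53 and were called with the block (limma adjusted p = 0.04 and 0.0346).

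Others of the genes act in signalling or transport. Gpr3, a receptor that raises cAMP without a known need for ligand, was at 11.27 and 10.48 in WT and 9.81 and 9.22 in KO (-1.36 ± 0.40 SE, limma adjusted p = 0.59, 0.0237 with the block). Slc2a1, the glucose transporter GLUT1, was at 12.35 and 12.40 in WT and 11.35 and 11.31 in KO, with each genotype close within itself (-1.04 ± 0.28 SE, limma adjusted p = 0.461, 0.032 with the block). Both genes rose in WT and in KO from 0 to 6 h, Gpr3 by 2.95 and 1.79 and Slc2a1 by 1.94 and 0.92. Slc25a36, a mitochondrial carrier of pyrimidine nucleotides, differed by -0.61 ± 0.11 at its brightest probe set and by -1.61 ± 0.14 and -1.13 ± 0.15 at its other probe sets. Stac, an adaptor of voltage-gated calcium channels, differed by -1.57 ± 0.42, and Trip10, a Cdc42 effector, by -1.82 ± 0.40, both called with the block (limma adjusted p = 0.0407 and 0.0132). Trip10 was above the array median in only 2 arrays, WT repeat 1 of this comparison and 1 MGE WT array, so it passed the filter on dim genes through an array where it was high.

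Some of these genes had a difference in the silenced state already. Crym, a thyroid hormone binding protein, was lower in KO by 1.39, 1.42 and 1.38 on the log2 scale at 0, 1 and 6 h. Its arrays at 6 h were 9.63 and 9.95 in WT and 8.16 and 8.66 in KO. Pde1a, a calmodulin-dependent phosphodiesterase, was lower by 0.88, 0.56 and 1.04. These 2 genes were the ones called at 0 h with the block (limma adjusted p = 0.0352 for Crym and 0.0238 for Pde1a). Sv2b, a synaptic vesicle glycoprotein, differed by -0.67 at 0 h and by -1.58 ± 0.34 at 6 h, and Ramp3, a partner of calcitonin family receptors, by -0.59 and -1.24 ± 0.41. At 0 h the 34 genes had a median of -0.07 against -0.01 over all genes, and 20 were below 0, against 56% of all genes.

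Of the genes higher in KO with the block, Otx1, a homeobox gene of deep-layer cortical neurons, was at 7.75 and 7.36 in WT and 8.22 and 8.39 in KO. The difference was 0.75 ± 0.13 SE (limma adjusted p = 0.0508, 0.0249 with the block). Amotl2, a scaffold of cell junctions, was at 9.86 and 10.01 in WT and 10.40 and 10.62 in KO (0.57 ± 0.18 SE, limma adjusted p = 0.664, 0.032 with the block). The remaining gene has only a Riken name. The genotypes did not overlap in either named gene.

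The upstream sequences of 3 called genes are shown for the Npas4 core, TCGTG, searched on both strands (as TCGTG or CACGA). Each is the 250 bases before the gene's start on its own strand in RefSeq (GRCm38.p6), with matches in capitals. Slc30a1 (chr1:191906531-191906780, plus strand) had 1 match, Bid (chr6:120916825-120917074, minus strand) had 2, and Gli2 (chr1:119053620-119053869, minus strand) had 0.
Slc30a1: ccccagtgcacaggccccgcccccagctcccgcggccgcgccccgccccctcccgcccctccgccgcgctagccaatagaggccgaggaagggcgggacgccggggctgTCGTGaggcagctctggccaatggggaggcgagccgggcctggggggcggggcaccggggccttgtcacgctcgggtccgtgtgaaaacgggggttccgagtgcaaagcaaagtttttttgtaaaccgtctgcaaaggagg
Bid: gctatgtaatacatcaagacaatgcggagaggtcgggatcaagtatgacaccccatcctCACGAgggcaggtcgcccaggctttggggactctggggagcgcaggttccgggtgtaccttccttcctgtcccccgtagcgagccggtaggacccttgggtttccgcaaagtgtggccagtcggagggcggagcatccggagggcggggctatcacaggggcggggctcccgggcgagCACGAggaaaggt
Gli2: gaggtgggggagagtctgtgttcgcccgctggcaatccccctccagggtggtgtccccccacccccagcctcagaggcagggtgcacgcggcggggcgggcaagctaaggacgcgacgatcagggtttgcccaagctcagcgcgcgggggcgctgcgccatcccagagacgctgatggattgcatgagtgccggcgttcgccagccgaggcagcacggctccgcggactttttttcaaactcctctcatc
The match of Slc30a1 begins 141 bases before the start, and those of Bid 191 and 13 bases before it. Of the 5 called genes besides Npas4, 2 (40%) held the core in this window. Among the 28 of the 34 genes with a RefSeq window it was in 12 (42.9%), and among the 10016 tested genes with one it was in 2133 (21.3%). With genes of a single listed start alone these shares were 9 of 24 (37.5%) and 18.8%. The CREB site TGACGTCA was in 3.57% of the 28 and 3.11% of all, and the AP-1 site TGANTCA in 3.57% and 5.19%. Such matches describe the letters of the window and no binding.

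Late response genes, which carry the secreted and synaptic products of activity, passed as higher at 6 h than at 0 h in 15 of 20 genes in each genotype. Bdnf, the neurotrophin, was at 12.98 and 12.32 in WT and 12.55 and 12.06 in KO, and the genotypes overlapped. Its difference was -0.34 ± 0.45 SE with a 95% interval of -1.31 to 0.63 (limma adjusted p = 1.00), and it rose by 5.38 in WT and 5.43 in KO. Nptx2, a secreted pentraxin that clusters AMPA receptors, was at 10.92 and 10.46 in WT and 10.24 and 9.53 in KO. Both KO arrays were lower, but the difference of -0.80 ± 0.60 did not pass (95% interval -2.09 to 0.48, limma adjusted p = 1.00, 0.651 with the block). A dimmer probe set of Nptx2 was at 7.75 and 6.98 in WT and 6.66 and 6.34 in KO, a difference of -0.86 ± 0.24 with an unadjusted limma p of 0.00266. Ptgs2, the inducible cyclooxygenase, was at 9.48 and 9.78 in WT and 8.31 and 8.85 in KO (-1.05 ± 0.68 SE, limma adjusted p = 1.00).

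**Figure D3:**
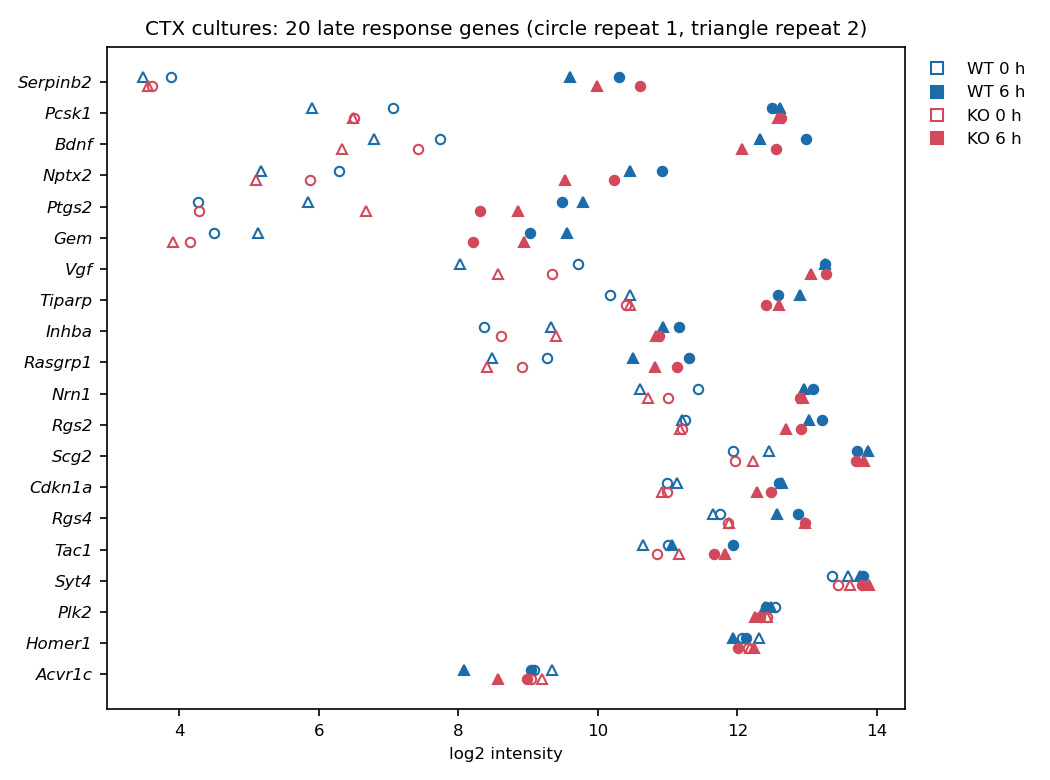
Log2 intensity of 20 late response genes at 0 h (open) and 6 h (filled) of KCl in CTX cultures, WT in blue and KO in red, with circles for repeat 1 and triangles for repeat 2. Genes are ordered by their WT response. For Pcsk1, Vgf, Scg2 and Bdnf the filled symbols of both genotypes lie together or overlap, and for Nptx2, Ptgs2 and Gem both KO arrays lie below both WT arrays.

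Other late genes lay close. Pcsk1, a prohormone convertase, stood at 12.50 and 12.62 in WT and 12.63 and 12.59 in KO, a difference of 0.05 (95% interval -0.93 to 1.03). Vgf, a granule peptide precursor, differed by -0.09, Scg2, a secretogranin, by -0.03, and Nrn1, a surface neurite-promoting protein, by -0.10. Plk2, a kinase of synaptic scaling, differed by -0.15, Homer1, a scaffold of metabotropic receptors, by 0.09, and the neuropeptide Sst by -0.13. Mdm2, an E3 ligase named as an Npas4 target in other work, differed by 0.14 (95% interval -0.21 to 0.50). Syt10, another such target, was below the filter and was not tested. Over the 20 late genes the median difference was -0.10 against -0.02 over all genes. In 8 of the 20 both KO arrays lay below both WT arrays and in 1 both lay above, against 10.8% and 8.1% of all genes. By limma 0 were called, with 0 at an unadjusted p under 0.05 and 0 with the block.

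The plot of late gene levels shows the same for the genes at its top, where the rise from 0 h was several times the distance between genotypes. Serpinb2, a serpin induced by synaptic activity, stood at 10.30 and 9.60 in WT and 10.60 and 9.98 in KO, with KO above WT in both repeats (0.34 ± 0.29 SE, limma adjusted p = 1.00). Gem, a small GTPase that dampens calcium channels, was at 9.03 and 9.56 in WT and 8.22 and 8.94 in KO (-0.72 ± 0.37 SE, limma adjusted p = 1.00).

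Rapid response genes, the transcription factors and regulators switched on without new protein synthesis, were still high at 6 h. Fos stood at 13.78 and 14.02 in WT and 13.76 and 13.91 in KO, and Fosb at 12.19 and 13.21 against 12.25 and 12.88. Egr1 and Nr4a1, a zinc finger factor and an orphan nuclear receptor, differed by 0.01 and -0.11. In each of these 4 genes the genotypes overlapped. Arc, which drives AMPA receptor endocytosis, was at 8.51 and 9.77 in WT and 8.60 and 8.35 in KO, so WT repeat 2 alone was high (-0.67 ± 0.34 SE, limma adjusted p = 1.00). Gadd45b, a stress-induced regulator of DNA demethylation, was likewise highest in WT repeat 2, at 10.15 and 11.62 in WT and 9.81 and 10.12 in KO (-0.92 ± 0.40 SE, limma adjusted p = 1.00).

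Over the 22 rapid genes the median difference was -0.22, with a median of -0.03 in repeat 1 and -0.35 in repeat 2. Values below 0 were found in 18 of the 22, against 54.7% of all genes, and 5 had no overlap with KO lower, against 10.8%. By limma 0 were called, with 4 at an unadjusted p under 0.05, against 3.47% of all genes. Csrnp1 was the one called with the block. Sertad1, a SERTA domain protein that binds CDK4, was not on the list and was chosen after its values were seen. It was at 10.68 and 11.08 in WT and 8.75 and 8.69 in KO, the second largest difference of all genes after Npas4 (-2.16 ± 0.50 SE, limma adjusted p = 0.223, 0.0653 with the block).

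Feedback inhibitors of signalling, 23 genes, had a median difference of 0.02. Their largest values were Sik1, a kinase that restrains CREB coactivators (0.52 ± 0.25), and Dusp5, an ERK phosphatase (-0.50 ± 0.59). Growth factors, 12 genes, had a median of -0.26, led by Pdgfb (-0.89 ± 0.41) and Tgfb2 (-0.76 ± 0.34). Tgfb2 was at 11.17 and 11.35 in WT and 10.51 and 10.48 in KO, with no overlap. Neuropeptides, 13 genes, had a median of -0.13, with Cartpt at 0.63 ± 0.31 and Penk at -0.36 ± 0.37. By limma 0 genes of these 3 lists were called with or without the block. At an unadjusted p under 0.05 there were 0, 2 and 0, against 3.47% of all genes.

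Genes of synapses and excitability had list medians within 0.1 of the -0.02 of all genes. The median difference was -0.06 over 23 glutamate receptor genes, 0.05 over 10 GABA receptor genes, 0.05 over 20 excitatory synapse proteins and -0.04 over 9 inhibitory synapse proteins. It was 0.03 over 28 potassium channels and -0.04 over 23 calcium channels and CaM kinases. Slc17a7, the vesicular glutamate transporter VGLUT1 and an excitatory marker, was at 11.46 and 11.40 in WT and 10.93 and 10.97 in KO, with no overlap (-0.48 ± 0.20 SE, limma adjusted p = 1.00). Slc17a6, another such transporter and marker, differed the other way by 0.48. Of the 12 excitatory markers, 2 had both KO arrays below both WT arrays and 2 had both above, against 10.8% and 8.1% of all genes. Of the 6 lists above limma called 0 genes with or without the block. At an unadjusted p under 0.05 there were 1, 0, 1, 0, 2 and 0, against 3.47% of all genes. The 17 bHLH-PAS factors, the family of Npas4 and its partners, had a median of 0.04 and 0 calls, with 0 at an unadjusted p under 0.05.

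**Figure D4:**
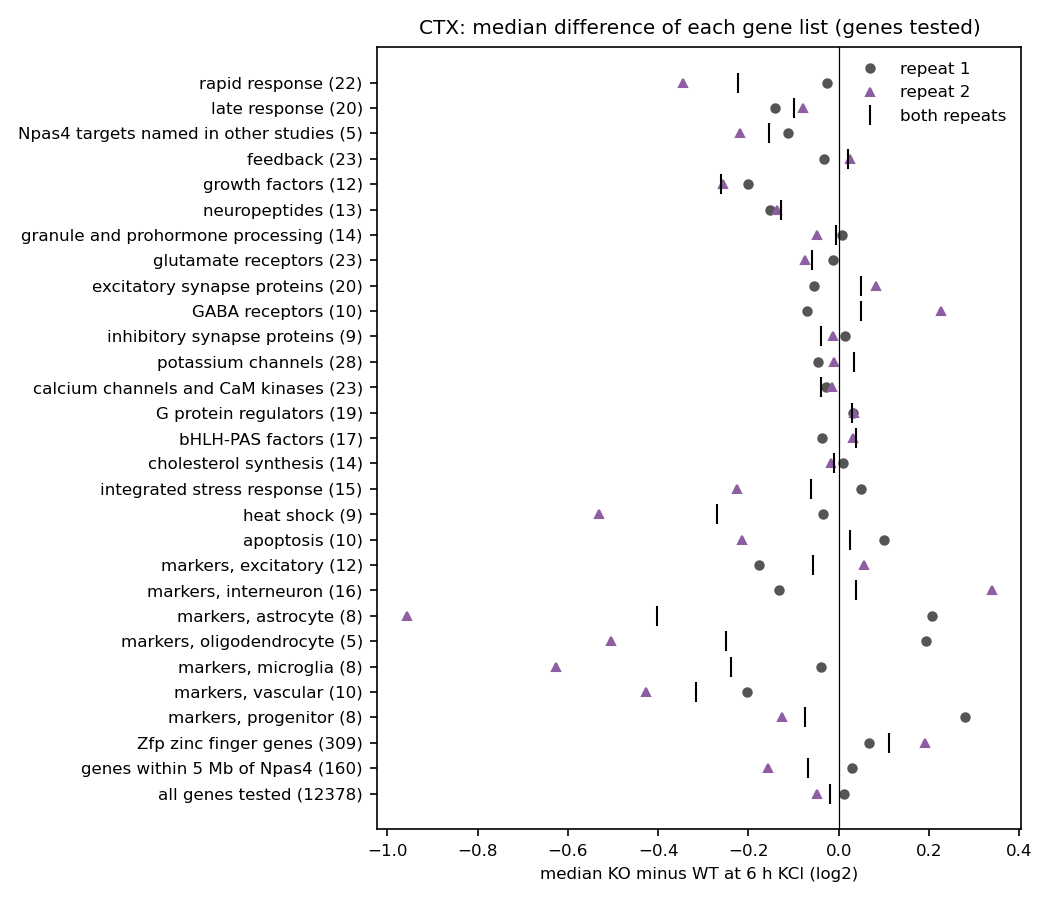
Median KO minus WT difference at 6 h (log2) of 29 gene lists in CTX cultures, for repeat 1 (circles), repeat 2 (triangles) and both repeats (bars), with the number of genes tested in parentheses. Lists of glial markers, heat shock and rapid response genes lie lower in repeat 2 than in repeat 1, and the astrocyte markers had medians of 0.21 and -0.96.

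Some list values came from 1 repeat, as the plot of list medians shows. The 9 heat shock genes had a median of -0.03 in repeat 1 and -0.53 in repeat 2, where Hspa1a, an inducible chaperone, was at 8.57 in WT and 7.27 in KO. The 8 astrocyte markers were below 0 in 1 of 8 genes in repeat 1 and in 8 of 8 in repeat 2. Their part in the difference of any other gene was not tested. The 309 Zfp zinc finger genes had a median of 0.11 (0.07 in repeat 1 and 0.19 in repeat 2). By limma 0 of them were called, with 17 at an unadjusted p under 0.05. The 160 tested genes within 5 Mb of Npas4 had a median of -0.07 (0.03 in repeat 1 and -0.16 in repeat 2). Of these 0 were called, with 6 at an unadjusted p under 0.05. Over all genes that share was 3.47%.

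MGE cultures, whose arrays are separate, gave the same contrast in other cells. There limma called 4 genes lower (0.0323%) and 0 higher (0%), with 364 (2.94%) at an unadjusted p under 0.05: Npas4 (-2.02), Adam11 (-1.77), Zfyve28 (-1.25) and Osgin2 (-1.22). With the block it called 10 lower (0.0808%). In CTX the last 3 were also lower in both KO arrays, Adam11 by 0.82, Zfyve28 by 0.90 and Osgin2 by 0.72 on the log2 scale, and of these Zfyve28 was called with the block. Zfyve28, an endosomal regulator of EGF receptor signalling, was at 7.74 and 7.46 in WT and 6.59 and 6.81 in KO in CTX.

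**Figure D5:**
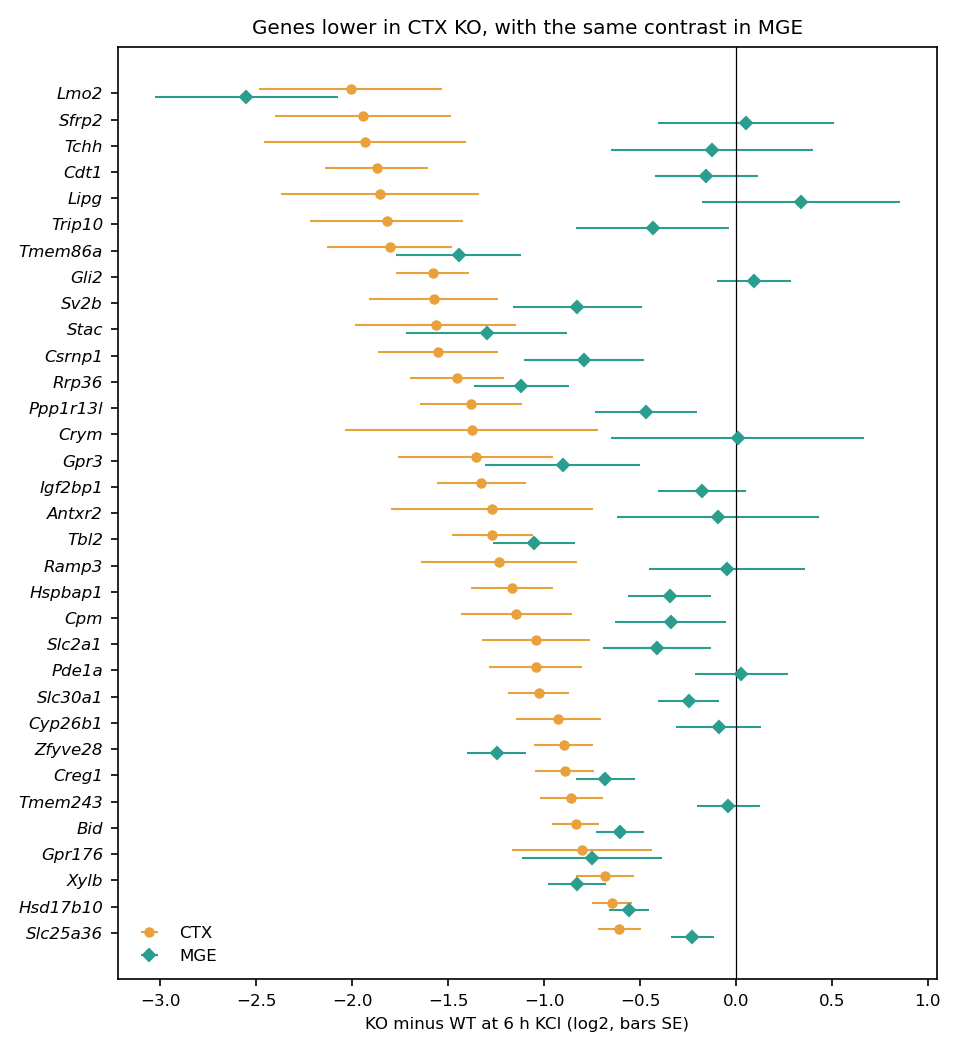
KO minus WT at 6 h of KCl (log2, bars SE) in CTX (circles) and MGE (diamonds) for 33 named genes called lower in CTX with the repeat block, besides Npas4, ordered by the CTX value. All CTX values lie left of 0 because that comparison chose the genes; Lmo2, Tmem86a, Stac, Rrp36, Tbl2 and Zfyve28 also lie left of -1 in MGE, whereas Sfrp2, Cdt1 and Lipg lie within 0.4 of 0.

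Of the 34 genes lower with the block in CTX, 29 (85.3%) were below 0 in MGE, against 54.3% of all genes, with a median of -0.42 against -0.02. The plot of CTX and MGE differences shows genes low in both and genes whose MGE value lay near 0. Lmo2 differed by -2.55 ± 0.48 in MGE, Tmem86a, a lysoplasmalogenase, by -1.45 ± 0.33, Rrp36 by -1.12 ± 0.25 and Tbl2, a WD repeat protein, by -1.05 ± 0.21. In CTX Tmem86a was at 10.49 and 9.21 in WT and 8.49 and 7.60 in KO, and Tbl2 at 8.93 and 9.56 against 7.74 and 8.21. The dimmer probe sets of Tbl2 differed by -0.86 ± 0.21, -0.24 ± 0.18 and -0.12 ± 0.21 in CTX.

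At the other end, MGE values were -0.16 ± 0.27 for Cdt1, 0.09 ± 0.19 for Gli2, 0.05 ± 0.46 for Sfrp2 and 0.34 ± 0.51 for Lipg. The dimmer probe sets of Cdt1 differed by -0.44 and 0.01 in MGE. Gli2 was below the array median in all MGE arrays, so its value there sets no contrast with CTX. The test of the difference between cell types called 0 genes (0%) by limma, with 154 (1.24%) at an unadjusted p under 0.05, and 3 with the block (0.0242%): Npas4, Cdt1 (limma adjusted p = 0.0302) and Pde1a (0.0408). For Slc30a1, Bid and Hsd17b10 the MGE values were -0.25 ± 0.16, -0.60 ± 0.12 and -0.56 ± 0.11.

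Among genes higher in KO without a call, 2 patterns came from single arrays. Ttr, the thyroid hormone carrier made by choroid plexus, was at 6.20 and 6.37 in WT and 9.81 and 6.17 in KO, so only KO repeat 1 was high, and the same array was highest for Ptgds, at 9.66 against 6.18 to 7.71. Calcrl, a calcitonin family receptor, was at 10.75 and 7.33 in WT and 10.90 and 9.74 in KO, so WT repeat 2 alone was low. Pnoc, the nociceptin precursor, also had WT repeat 2 lowest, at 11.92 and 9.02 in WT and 11.81 and 11.10 in KO. The limma adjusted p of each was 1.00.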

How the data were processed

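RNA of 24 samples (amplified with NuGEN Ovation V2 per the labels) was measured on Affymetrix mouse arrays. The authors deposited linear intensities, made with RMA per the submitters' processing notes, which give no version. RMA equalizes arrays, so a change common to most genes is hidden. The table held 45101 probe sets and 0 columns were left unused.

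Intensities were converted to log2. Of the probe sets, 34958 had 1 gene symbol, 932 several and 9211 none in the platform annotation. RefSeq (GRCm38.p6) matched 34754 and changed 0 symbols. The probe set with the highest overall mean stood for a gene, and its level was never set against another gene's. The main test was limma 3.58.1 (R 4.3.3) on 12 group means over all 24 arrays, without a repeat block, two-sided, with Benjamini-Hochberg adjustment over 12378 genes. Called means an adjusted p under 0.05. The number of arrays limits the precision. The procedure was tested on simulated data with independent noise and no shift between repeats. That run thus cannot show how either fit behaves with the repeat shift of these arrays.

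Repeat numbers were checked by the correlation, across genes, of same-numbered arrays' deviations from their group means. All 15 pairs of CTX groups exceeded 0.1, against 13 of 15 pairs of MGE groups (-0.23 to 0.857). On the basis of the data the numbers were taken to mark a shift shared by CTX arrays, since the labels do not say what a number marks. Blocked values are given where they change a call or a count.

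Named genes were Npas4, up to 12 called genes in each direction without overlap, and 16 known activity genes. The called or else the 2 largest members were named for some of the lists, but not for every list. Other named genes were chosen after their values were seen. Members and gene lists were chosen with earlier results of these data known. Alternatives were other filters, normalizations, a pseudocount, probe set choice, the prior, fewer arrays, the block and each array left out.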

Additional observations from a re-analysis of the deposited data

Results flagged for a closer look

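Npas4 had a genotype difference that changed with depolarization by a test of the change itself: the log2 difference KO minus WT in CTX cultures at 6 h, less that at 0 h, was -3.94 (limma adjusted p = 0.000228).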

How the results depend on the processing

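The count of 6 genes called at 6 h in CTX moved with most choices. It was 38 with the replicate block, 14 with no filter on dim genes, 12 with quantile and 13 with cyclic loess normalization, 11 with a pseudocount of 16 and 13 with a trended robust prior. It was 3 with CTX arrays only, 3 with CTX arrays only and the block (chosen after seeing the data), and 0 with the 4 arrays alone, where 0 is a test with few degrees of freedom. Leaving out 1 array gave 2 to 129. A stricter filter (4 genes) and the most variable probe set (7 genes) stayed within 1.5 times. The count at 0 h was 2 with the block and 0 otherwise. The change of the genotype difference from 0 to 6 h called 2 genes with the most variable probe set and 1 to 2 with an array left out. The count of 4 in MGE was 10 with the block, 7 with the most variable probe set, 2 with MGE arrays only, and 0 to 5 with an array left out. The difference between cell types called 3 genes with the block and 1 with no filter. The causes were not tested.

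Of 15 alternatives, Npas4 was called in 14, Cdt1 in 11, Slc30a1 and Bid in 9 and Hsd17b10 in 7, and Gli2 in 9 of 14, all with the same sign. The call of Hsd17b10 was lost under the stricter filter, and those of all but Npas4 were lost in each fit without 1 of the KO arrays. The shared sign adds no support, because none of these genes had an overlap between genotypes in the arrays that chose them. With 2 arrays a group, the median SE of the genotype difference was 0.207, which limits what could be called.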
